A study of Mus musculus with 32 samples.

Results

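The genes described here encode 7 subunits of the GABA-A receptor, the main inhibitory neurotransmitter receptor of the forebrain. They are Gabra2, Gabra3, Gabra4 and Gabra5 of the alpha class, Gabrb1 and Gabrb2 of the beta class, and Gabrd of the delta class. They were taken by gene name from a table of 40392 genes, in which each of the 7 names occurred once. Polyadenylated RNA had been sequenced from the basolateral amygdala of mice, a part of the amygdala that takes part in fear and anxiety. Socially defeated mice, that is mice stressed by the attacks of an aggressive mouse, were set against control mice, in adults and in adolescents, at day 21 and at day 1. The 8 groups of 4 libraries were therefore adult defeat day 21, adult control day 21, adult defeat day 1, adult control day 1, adolescent defeat day 21, adolescent control day 21, adolescent defeat day 1 and adolescent control day 1. Ages of 6 and 9 weeks appear in the study's description, but not which age class each belongs to, and nothing says from which event the days were counted. Strain, sex and whether a library holds tissue of 1 mouse or of several are not given in the sources used here. A p-value here therefore sets a difference between groups against the spread between libraries, which may be partly technical rather than between mice.

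GABA-A receptors are chloride channels built from several subunits around a pore, and GABA binds between an alpha and a beta subunit. Receptors that pair an alpha2, alpha3 or alpha5 subunit with a gamma subunit respond to benzodiazepines, and in mice the alpha2 subunit has been tied to the anxiety-relieving action of these drugs. Receptors that pair alpha4 with delta lie mostly outside synapses, carry a steady tonic current and respond to neurosteroids, and alpha5 receptors also carry tonic current in many neurons.

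All 7 genes were protein coding. As the table lists positions, with its genome build not stated, Gabra2 (ENSMUSG00000000560, minus strand) lay on chromosome 5 at 71114940 to 71253192, and Gabra4 (ENSMUSG00000029211, minus strand) at 71727092 to 71815651 on the same chromosome. Gabrb1 (ENSMUSG00000029212, plus strand) lay beside it at 71815456 to 72306380, so that Gabra4 and Gabrb1 were read away from each other with an overlap of 196 bases. Gabra5 (ENSMUSG00000055078, minus strand) lay on chromosome 7 at 57057420 to 57159757. Gabrb2 (ENSMUSG00000007653, plus strand) lay on chromosome 11 at 42310584 to 42519855, Gabrd (ENSMUSG00000029054, minus strand) on chromosome 4 at 155469437 to 155482569, and Gabra3 (ENSMUSG00000031343, minus strand) on chromosome X at 71476287 to 71700454. The authors' use of strand in counting is not stated, so reads from stretches of Gabra4, Gabrb1 and Gabra5 that another gene overlaps may have been assigned to either gene, and the values of these 3 genes carry that uncertainty.

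RefSeq promoter entries of mouse build GRCm38.p6 were matched by name for 6 of the 7 genes, in 10 windows of 250 bases before an annotated start. Their coordinates are of that build and are not to be set against the positions in the table. Gabrd, which differed by age class as described further on, had no entry. Sequences are given for Gabra2, which differed by age class and by day, and for Gabrb2, which differed by day. A sequence is also given for Gabra4, whose window runs into a Gabrb1 exon in the GENCODE annotation of the same build. All 3 run 5′ to 3′ along the gene's own strand, and capitals mark CG dinucleotides and, in Gabrb2, also a TATAAA match.
Gabra2, chr5:71095850-71096099, minus strand: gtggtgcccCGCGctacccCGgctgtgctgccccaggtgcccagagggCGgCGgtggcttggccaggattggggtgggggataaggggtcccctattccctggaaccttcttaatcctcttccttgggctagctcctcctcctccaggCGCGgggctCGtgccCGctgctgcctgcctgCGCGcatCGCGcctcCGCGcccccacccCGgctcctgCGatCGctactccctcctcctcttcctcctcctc
Gabra4, chr5:71658364-71658558, minus strand: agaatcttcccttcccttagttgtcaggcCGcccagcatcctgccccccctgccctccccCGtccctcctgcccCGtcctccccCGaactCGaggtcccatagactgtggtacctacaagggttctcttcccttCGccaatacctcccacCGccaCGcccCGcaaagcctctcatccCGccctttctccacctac
Gabrb2, chr11:42420190-42420439, plus strand: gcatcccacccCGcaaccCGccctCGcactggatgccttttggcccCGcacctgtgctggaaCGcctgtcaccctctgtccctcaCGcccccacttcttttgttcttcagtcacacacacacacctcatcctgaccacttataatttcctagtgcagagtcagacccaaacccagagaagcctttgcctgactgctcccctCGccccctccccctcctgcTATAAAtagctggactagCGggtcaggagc
The Gabra2 window held 18 CG dinucleotides at 70.0% G and C, against a median of 6 and 52.4% over the 32851 windows of the whole promoter table. Of the Gabra4 window, 195 bases are printed, from 250 to 56 before the start, since the remaining bases lie in that exon, and they held 10 CG dinucleotides. The Gabrb2 window held 8 CG dinucleotides and a TATAAA match that began 30 bases before the start. Both windows of Gabra3 held 0 CG dinucleotides. Motifs were searched on both strands. TATAAA, the TATA box, was found in 12.4% of all windows, and among the 6 genes with windows it was found in that Gabrb2 window and, on the other strand, in both Gabra3 windows, which overlap each other and share the match. TGACGTCA, the cAMP response element, was found in 1.55% of all windows, GCGTGGGCG, an EGR site, in 0.536%, CACGTG, an E-box, in 6.02%, and the palindromic glucocorticoid response element with 3 free bases between its arms in 0.387%, and none of these 4 was found in the windows of the 6 genes. Gabrd had no window to search.

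Library totals ranged from 53885799 to 82208892 counts. Markers of the labelled tissue were present in every library, with a summed level of 486 to 669 FPKM (a level per length of the gene's transcript model and per sequenced fragment) over 9 markers of pallial and basolateral amygdala excitatory neurons. Markers of neighbouring regions and of other cell types were present too. The summed level of 10 markers of striatum and central amygdala ranged from 608 to 1304 FPKM, that of 7 oligodendrocyte markers from 602 to 1869 FPKM, and that of 8 choroid plexus markers from 3.38 to 1936 FPKM, with no marker at 0 in all libraries. Ttr, the leading choroid plexus marker, exceeded 100 CPM (counts scaled to the total of their library) in 11 libraries, among them all 4 of the adolescent defeat day 1 group and none of the adult defeat day 21 group. In bulk tissue, fewer cells of a type and less RNA per cell cannot be told apart, and this holds for every level below.

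Gabra3 was the most abundant of the 7 transcripts per length and Gabra2 the least. Over the 32 libraries Gabra3 averaged 34.1 ± 3.34 FPKM (SD, n = 32), Gabrd 23.2 ± 3.23 FPKM, Gabra5 19.3 ± 2.83 FPKM, Gabra4 17.1 ± 1.45 FPKM, Gabrb2 8.86 ± 1.21 FPKM, Gabrb1 8.23 ± 0.786 FPKM and Gabra2 7.65 ± 1.09 FPKM. Gabra3 lay above Gabrd, and Gabra4 above Gabrb2, in 32 of 32 libraries, and only the ranges of Gabra4 and Gabrb2 did not overlap among neighbours in this order. Gabrd above Gabra5 and Gabra5 above Gabra4 each held in 26 of 32 libraries, and Gabrb2 above Gabrb1 and Gabrb1 above Gabra2 each in 23 of 32, so these neighbours were not set apart library by library. Of the gamma subunits, Gabrg1 averaged 4.80 ± 0.467 FPKM and Gabrg3 2.17 ± 0.166 FPKM. The plot of subunit levels shows these ranges.

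**Figure D1:**
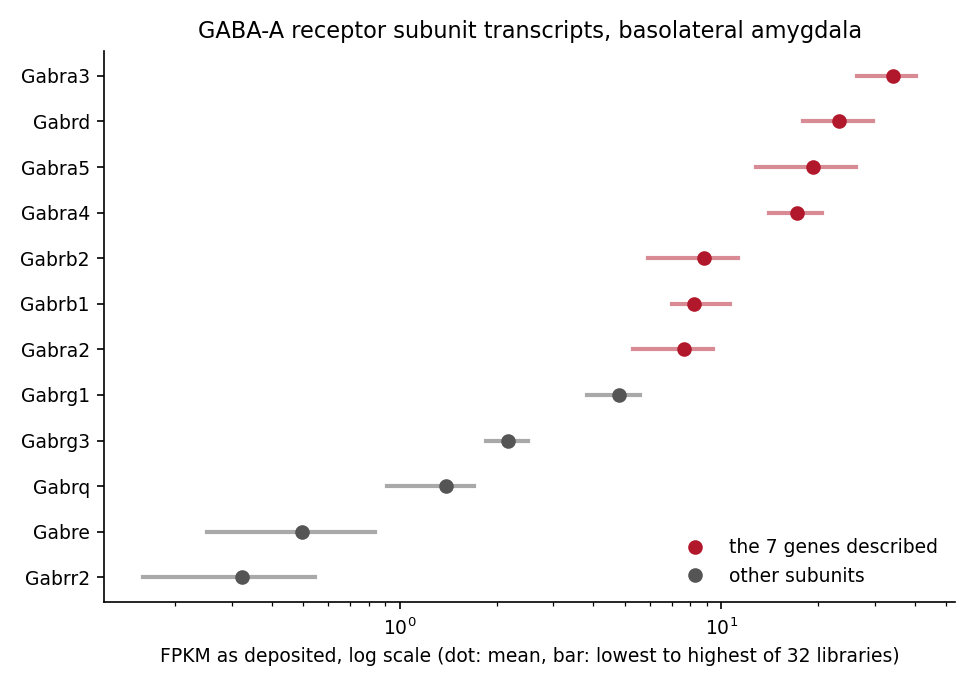
FPKM on a log axis for 12 GABA-A subunit transcripts that were above 0 in every library, with a dot for the mean and a bar from the lowest to the highest of 32 libraries, red for the 7 genes described and grey for other subunits. Gabra3 stands highest among the red genes at a mean of 34.1 FPKM, and Gabra2 lowest at 7.65 FPKM.

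Group means differed most for Gabra2, with 5.74 ± 0.511 FPKM in the adolescent defeat day 1 group, the lowest, and 8.85 ± 0.815 FPKM in the adult control day 1 group, the highest at 1.54 times that level (SD, n = 4 each). For the other 6 genes the highest group mean was 1.16 to 1.25 times the lowest. From here on, levels of a gene across libraries are CPM after TMM scaling, and differences are log2 changes with their standard errors (SE) from a single edgeR fit of the 8 group means. Adjusted p-values are those of edgeR's quasi-likelihood test with Benjamini-Hochberg adjustment over all 23778 genes tested, with 0.05 as the threshold.

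Social defeat changed none of the 7 subunit transcripts past the threshold in any of the 4 combinations of age class and day. In adults at day 21, where 0.00841% of all genes tested passed, 0 of 7 passed, and 0 had an unadjusted p under 0.05, as 6.46% of all genes did. In adults at day 1, where 0.353% of all genes passed, 0 of 7 passed, again with 0 under an unadjusted 0.05, against 9.51% of all genes. In adolescents at day 21, where 0.0126% passed, 0 of 7 passed and 1, Gabra2, was under an unadjusted 0.05, against 5.72%. In adolescents at day 1, where 0.0547% passed, 0 of 7 passed and 1, again Gabra2, was under an unadjusted 0.05, against 7.45%. DESeq2 and limma on log2 FPKM also called 0 of 7 in each. For every one of the 7 genes the defeat and control libraries overlapped in all 4 comparisons, while over all genes they did not overlap for 3.88% in adults at day 21 and 5.42% at day 1, and for 3.86% in adolescents at day 21 and 4.8% at day 1. The 95% intervals of the 7 changes in the 4 comparisons lay between -0.38 and 0.40 on the log2 scale, that is between 0.769 and 1.32 times the control level.

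Among the alpha subunits, Gabra2 had the smallest p-values for defeat in 3 of 4 combinations, with lower means in defeated adolescents at both days. In adolescents at day 1, Gabra2 stood at 44.8, 47.7, 43.9 and 54.8 CPM in defeat libraries, against 52.6, 58.9, 50.1 and 62.3 CPM in control libraries. Of the 4 defeat libraries, 3 lay below every control library and the other lay among them, and the change of -0.23 ± 0.07 (SE) did not pass, with an unadjusted p of 0.00453 and an edgeR adjusted p of 0.372. Ttr exceeded 100 CPM in 4 of 4 of these defeat libraries and 1 of 4 of these control libraries, so defeat and choroid plexus content largely coincided. In adolescents at day 21, Gabra2 stood at 55.8, 58.8, 56.7 and 64.5 CPM in defeat libraries, against 69.5, 62.8, 71.8 and 63.4 CPM in control libraries. Here too 3 defeat libraries lay below all controls, and the change was -0.18 ± 0.07 with an unadjusted p of 0.0199 and an edgeR adjusted p of 0.771. In adults at day 1, Gabra2 stood at 65.7, 67.1, 66.4 and 68.8 CPM in defeat libraries, against 73.5, 77.4, 76.0 and 63.2 CPM in control libraries, a change of -0.11 ± 0.07 (edgeR adjusted p = 0.692). A single control library, replicate 4, lay below the 4 defeat libraries and the other 3 above them. In adults at day 21 the mean was higher after defeat, with 65.5, 72.9, 68.7 and 74.6 CPM in defeat libraries, against 60.9, 63.9, 66.4 and 71.8 CPM in control libraries, and a change of 0.10 ± 0.07 (edgeR adjusted p = 0.900). Of the defeat libraries, 2 lay above every control library and the rest within their range. The plot of levels by library shows Gabra2 with the other 6 genes.

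**Figure D2:**
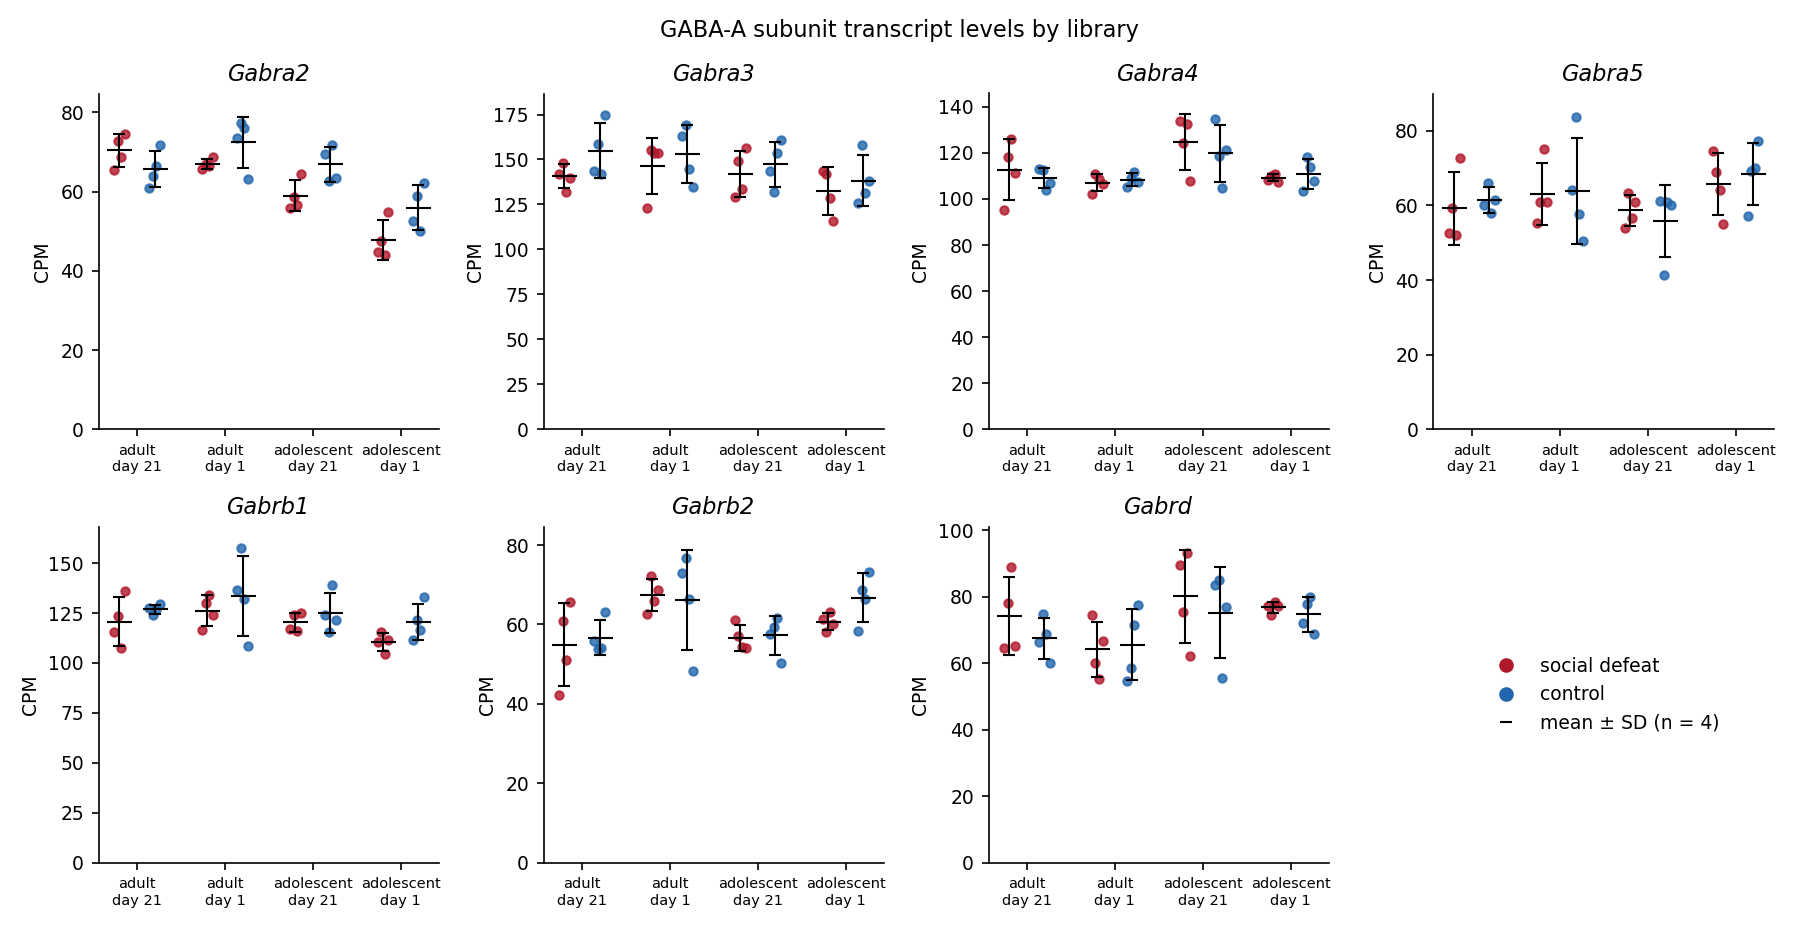
CPM of each of the 7 genes in every library, in panels by gene, with age class and day along the axis, defeat libraries in red to the left of control libraries in blue, and bars for the mean ± SD (n = 4 libraries). Defeat and control points overlap in every panel and position, and Gabra2 is lowest in adolescents at day 1, at 43.9 to 54.8 CPM after defeat and 50.1 to 62.3 CPM in controls.

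None of the other alpha subunits had an unadjusted p under 0.05. Gabra3 had a lower mean after defeat in 4 of 4 combinations. In adults at day 21 it averaged 141 ± 6.69 CPM in defeat libraries and 155 ± 15.3 CPM in control libraries (SD, n = 4 each), a change of -0.14 ± 0.09 with a 95% interval of -0.32 to 0.04 (edgeR adjusted p = 0.868). Its changes in the other 3 combinations lay between -0.06 and -0.05. Gabra4, the partner of delta in receptors outside synapses, changed by 0.05 ± 0.07 in adults at day 21 and -0.02 ± 0.07 at day 1, and by 0.06 ± 0.07 in adolescents at day 21 and -0.02 ± 0.07 at day 1, with edgeR adjusted p-values of 0.963 to 0.997. Gabra5 had the widest intervals of the 4 alpha genes, and its changes lay between -0.06, in adolescents at day 1 (95% interval -0.33 to 0.21), and 0.07, at day 21 in the same age class (95% interval -0.20 to 0.34). The change at day 21 turned to -0.05 without adolescent control replicate 2, whose Gabra5 level, 41.3 CPM, was the lowest of its group, and with each library left out it reached at most 0.11.

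Of the beta subunits, Gabrb1 had a lower mean after defeat in 4 of 4 combinations, with changes between -0.13 and -0.05, both of these in adolescents, at day 1 and at day 21. In adolescents at day 1 it stood at 110.5, 115, 105 and 111 CPM in defeat libraries, against 112, 121, 116 and 133 CPM in control libraries, with 3 of 4 defeat libraries below every control library (edgeR adjusted p = 0.781). Gabrb2 changed by -0.14 ± 0.11 there, and by -0.05 to 0.03 in the other 3 combinations. Gabrd, the delta subunit, had a higher mean after defeat in 3 of 4 combinations. Its largest change was in adults at day 21, with 64.5, 78.2, 88.8 and 65.1 CPM in defeat libraries, against 66.3, 74.8, 68.7 and 60.1 CPM in control libraries. Of the defeat libraries, 2 lay above every control library and the rest within their range, and the change was 0.14 ± 0.13 with a 95% interval of -0.13 to 0.40 (edgeR adjusted p = 0.933). With 1 library left out it lay between 0.03, without defeat replicate 3, the highest of these libraries, and 0.20. Markers of striatum and central amygdala moved with these Gabrd values: all 10 had means above control after defeat in adults at day 21, with 0 of 10 past the threshold, and their sum ranged over 848 to 1245 FPKM in defeat libraries and 781 to 857 FPKM in control libraries. With the score of those markers as a covariate, the Gabrd change in adults at day 21 was -0.05.

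**Figure D3:**
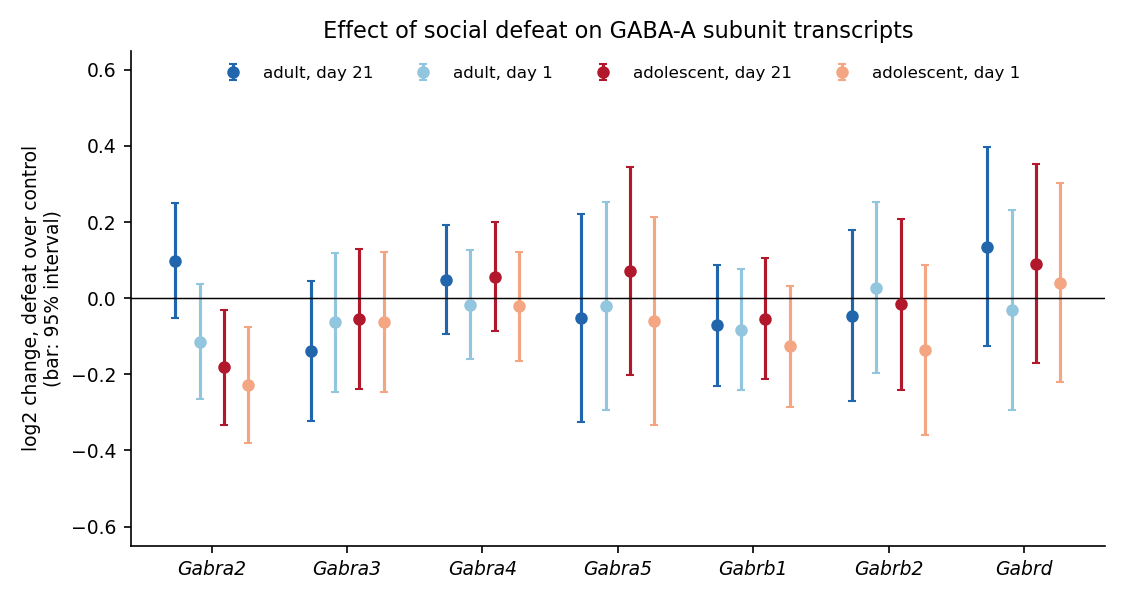
Log2 change of each gene after social defeat, relative to control, in the 4 combinations of age class and day, with bars for the 95% interval of the edgeR fit. Points lie between -0.23, for Gabra2 in adolescents at day 1, and 0.14, for Gabrd in adults at day 21, and 0 of 7 genes passed the threshold in any combination.

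Averaged with equal weight over the 4 combinations of age class and day, where 0.0589% of all genes passed, 0 of 7 subunit genes passed in edgeR, DESeq2 or limma, and 2 had an unadjusted p under 0.05, as 8.28% of all genes did. Gabra2 averaged -0.11 ± 0.04 with a 95% interval of -0.18 to -0.03 (unadjusted p = 0.00742, edgeR adjusted p = 0.380), and it was lower after defeat in 3 of 4 combinations. Gabrb1 averaged -0.08 ± 0.04 (unadjusted p = 0.0403, edgeR adjusted p = 0.568). The averages of Gabra3, Gabrb2, Gabra5, Gabra4 and Gabrd were -0.08, -0.04, -0.02, 0.02 and 0.06. The median over the 7 genes was -0.04, beside 0.00 over all genes tested. All 4 comparisons of defeat use different libraries, so the 4 changes of a gene are independent of each other in their libraries, while sharing 1 estimate of the spread.

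Tests of whether the defeat effect itself differed called 0 of 7 genes in all 4 cases, by edgeR and by DESeq2. The adult minus adolescent difference in defeat effect at day 21, where 0.0252% of all genes passed, was 0.28 ± 0.10 for Gabra2, with a 95% interval of 0.07 to 0.49 (unadjusted p = 0.0117, edgeR adjusted p = 0.524). That difference joined a higher mean after defeat in adults to a lower one in adolescents, and 1 of the 7, Gabra2, was under an unadjusted 0.05 there, against 7.28% of all genes. The day 21 minus day 1 difference in adults, where 0.622% passed, was 0.21 ± 0.10 for Gabra2 (unadjusted p = 0.05, edgeR adjusted p = 0.474), and 0 of 7 were under an unadjusted 0.05, against 10.6% of all genes. In the adult minus adolescent difference at day 1, where 0.0168% passed and 6.62% were under an unadjusted 0.05, and in the day 21 minus day 1 difference in adolescents, where 0.00421% passed and 4.97% were, 0 of 7 were under an unadjusted 0.05. The values lay between -0.07 and 0.16 and between 0.01 and 0.13.

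Among other genes of GABA signalling, 1 call was made for defeat. Of 7 other GABA-A subunits tested, 9 genes of GABA synthesis, packaging, uptake and breakdown, 24 of receptor anchoring, assembly and trafficking, 7 of the chloride gradient, 6 of GABA-B receptors and 6 of neurosteroids and benzodiazepine-site ligands, the single gene that passed in the 4 defeat comparisons was Trak1. Trak1, an adaptor that links cargo to motor proteins, averaged 205 ± 6.93 CPM in defeat libraries and 178 ± 11.2 CPM in control libraries in adults at day 1 (SD, n = 4 each), with all 4 defeat libraries above all 4 control libraries. In that comparison 0.353% of all genes passed and 5.42% did not overlap. Its change was 0.21 (edgeR adjusted p = 0.0411), and the day 21 minus day 1 difference in its defeat effect in adults, where 0.622% of all genes passed, was -0.30 (edgeR adjusted p = 0.0208).

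Between age classes, Gabra2 was higher in adults than in adolescents among controls at day 1. The adult control libraries stood at 73.5, 77.4, 76.0 and 63.2 CPM, against 52.6, 58.9, 50.1 and 62.3 CPM in adolescent control libraries. Every adult library lay above every adolescent library, a pattern that 4.36% of all genes tested showed, and the change was 0.37 ± 0.07 on the log2 scale, a 1.3-fold difference (edgeR adjusted p = 0.00263). It was the 1 of the 7 genes that passed, in a comparison in which 4.38% of all genes passed. The call was lost in a fit of the 2 groups alone (edgeR adjusted p = 0.0523) and without the libraries above 100 CPM of Ttr, which left a change of 0.32 (edgeR adjusted p = 0.110). Gabrb1 had a change of 0.15 ± 0.08 (edgeR adjusted p = 0.349), and without adult control replicate 4 at day 1, the library in which all of the 7 genes but Gabra4 and Gabrd were lowest of their group, Gabrb1 passed as well.

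At day 21 the difference was not seen: Gabra2 stood at 60.9, 63.9, 66.4 and 71.8 CPM in adult control libraries, against 69.5, 62.8, 71.8 and 63.4 CPM in adolescent control libraries, a change of -0.02 ± 0.07 with a 95% interval of -0.18 to 0.13 (edgeR adjusted p = 0.911). In this comparison, where 6.06% of all genes passed, 0 of 7 subunit genes passed in edgeR or DESeq2 and 0 were under an unadjusted 0.05, against 19.0% of all genes. Gabra4 came nearest, at -0.14 ± 0.07 (unadjusted p = 0.0600).

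Averaged over treatment and day, where 23.0% of all genes passed, 2 of 7 genes differed between adults and adolescents, Gabra2 upward and Gabrd downward. Gabra2 was higher in adults by 0.27 ± 0.04 on the log2 scale, with a 95% interval of 0.20 to 0.35 and an edgeR adjusted p of 1.85e-06, in 3 of 4 combinations of treatment and day. Its widest gap was after defeat at day 1, with 65.7, 67.1, 66.4 and 68.8 CPM in adult libraries, against 44.8, 47.7, 43.9 and 54.8 CPM in adolescent libraries, and every adult library lay above every adolescent library, as for 7.2% of all genes. After defeat at day 21 the adult libraries, at 65.5 to 74.6 CPM, again all lay above the adolescent libraries, at 55.8 to 64.5 CPM, as for 4.89% of all genes. The Gabra2 call held with each library left out in turn and under every alternative run for this average. Fits of the compared groups alone and without libraries above 100 CPM of Ttr were not among them.

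Gabrd was lower in adults, with an averaged log2 change of -0.18 ± 0.06, a 95% interval of -0.31 to -0.05 (edgeR adjusted p = 0.0419), in 4 of 4 combinations. After defeat at day 1 Gabrd stood at 74.6, 60.0, 55.3 and 66.5 CPM in adult libraries, against 77.1, 74.4, 78.3 and 77.2 CPM in adolescent libraries, and among controls at day 1 at 54.7, 58.5, 71.4 and 77.5 CPM in adult libraries, against 72.2, 77.9, 79.9 and 68.6 CPM in adolescent libraries. After defeat at day 21 it stood at 64.5, 78.2, 88.8 and 65.1 CPM in adult libraries, against 89.5, 75.4, 93.0 and 62.2 CPM in adolescent libraries, and among controls at day 21 at 66.3, 74.8, 68.7 and 60.1 CPM in adult libraries, against 83.4, 85.0, 55.5 and 76.9 CPM in adolescent libraries. Groups overlapped in each case, by a single adolescent library at 55.5 CPM in the last. Markers of striatum and central amygdala moved the same way: all 10 had lower means in adults, 5 of 10 past the threshold, with a median log2 change of -0.19. All 7 oligodendrocyte markers also had lower means in adults, 4 of 7 past the threshold, with a median of -0.27, and their part was not tested. The sum of the striatal and central amygdala markers was 608 to 966 FPKM in adult control libraries at day 1, against 761 to 964 FPKM in adolescent control libraries, and after defeat at day 1 it was 658 to 926 FPKM in adult libraries, against 889 to 991 FPKM in adolescent libraries. With the score of these markers as a covariate the Gabrd difference was -0.03 and did not pass (edgeR adjusted p = 0.546). Over 32 fits, each without 1 library, the call was lost in 20, with edgeR adjusted p-values of 0.00974 to 0.0824.

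The remaining genes did not pass between age classes. Gabrb1 averaged 0.09 ± 0.04 (edgeR adjusted p = 0.0925) and Gabra4 -0.09 ± 0.04 (edgeR adjusted p = 0.0794), with Gabra4 lower in adults in 4 of 4 combinations. Gabra3 averaged 0.09 ± 0.04, Gabrb2 0.02 ± 0.05 and Gabra5 0.00 ± 0.07.

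**Figure D4:**
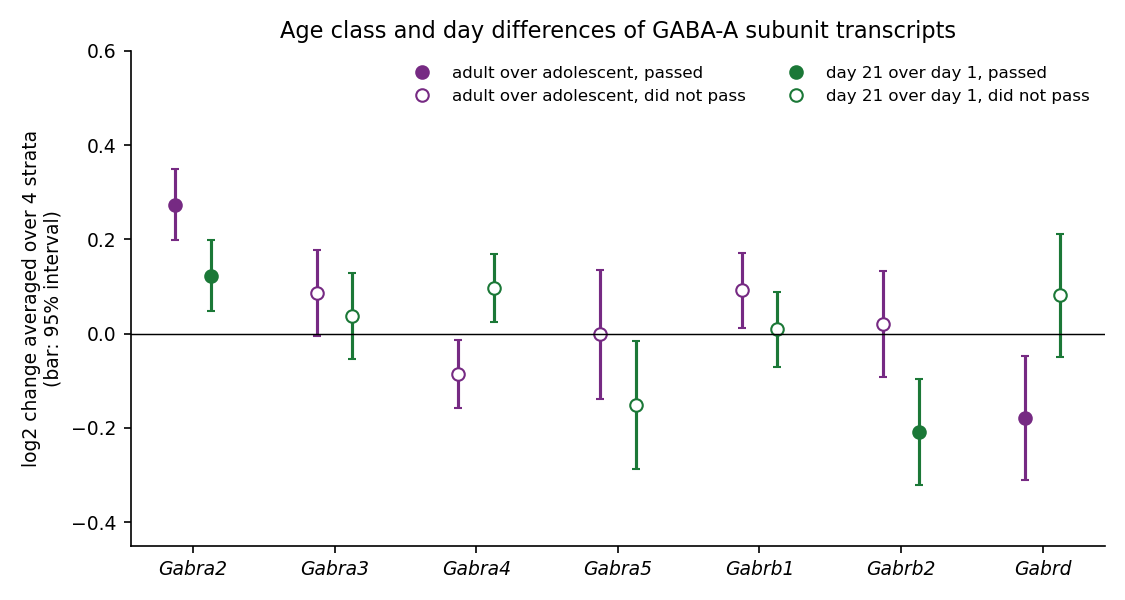
Log2 changes averaged over 4 combinations of the other 2 factors, adult over adolescent in purple and day 21 over day 1 in green, with 95% intervals; filled points passed the threshold and open points did not. Gabra2 stands at 0.27 by age class and 0.12 by day, Gabrd at -0.18 by age class, and Gabrb2 at -0.21 by day.

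Between days, averaged over age class and treatment, where 9.3% of all genes passed, Gabrb2 was lower and Gabra2 higher at day 21, and the other 5 genes did not pass. Gabrb2, a beta subunit found in many synaptic receptors, was lower at day 21, with an averaged log2 change of -0.21 ± 0.05, a 95% interval of -0.32 to -0.10 (edgeR adjusted p = 0.0135), in 4 of 4 combinations. Among adult defeat libraries it stood at 42.2, 60.9, 51.2 and 65.6 CPM at day 21, against 62.6, 72.3, 65.9 and 68.8 CPM at day 1. Among adult control libraries it stood at 55.7, 53.9, 54.0 and 63.2 CPM at day 21, against 72.9, 76.8, 66.4 and 48.3 CPM at day 1. Adolescent control libraries held 57.5, 59.4, 61.7 and 50.3 CPM at day 21, against 58.5, 68.8, 66.3 and 73.2 CPM at day 1, and adolescent defeat libraries 61.0, 57.0, 54.3 and 54.1 CPM at day 21, against 61.4, 58.2, 63.2 and 60.2 CPM at day 1. The days overlapped in all 4 combinations, in adult controls by day 1 replicate 4 alone. Separately among controls the change was -0.22 ± 0.11 in adults and -0.22 ± 0.11 in adolescents, and neither passed.

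Gabra2 was higher at day 21 by 0.12 ± 0.04 (edgeR adjusted p = 0.0328), in 3 of 4 combinations. This call was lost in 4 of 32 fits without 1 library each, without the filter on low counts and with limma on log2 FPKM. The gap was widest in adolescents: 55.8, 58.8, 56.7 and 64.5 CPM in defeat libraries at day 21, against 44.8, 47.7, 43.9 and 54.8 CPM at day 1, and 69.5, 62.8, 71.8 and 63.4 CPM in control libraries at day 21, against 52.6, 58.9, 50.1 and 62.3 CPM at day 1. In both, every day 21 library lay above every day 1 library, as for 3.36% of all genes in adolescent defeat libraries and 3.16% in adolescent controls. In adolescent controls alone, where 0.925% of all genes passed, 0 of 7 passed in edgeR and 2 were under an unadjusted 0.05, against 11.8% of all genes, Gabra2 at 0.26 ± 0.07 (edgeR adjusted p = 0.0903) and Gabra5 at -0.29 ± 0.13 (edgeR adjusted p = 0.370). Without day 21 replicate 2, the library low in Gabra5, that change was -0.17. DESeq2, which called 1.48% of the genes listed, called Gabra2 there (adjusted p = 0.0313). In adult controls alone, where 0.858% passed, 0 of 7 passed in edgeR or DESeq2, 0 were under an unadjusted 0.05, against 12.9% of all genes, and Gabra2 was at -0.14 ± 0.07.

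Of the others, Gabra4 averaged 0.10 ± 0.04 (edgeR adjusted p = 0.0793), with a higher mean at day 21 in 4 of 4 combinations, and Gabra5 -0.15 ± 0.07 (edgeR adjusted p = 0.165), with a lower one in 4 of 4. Gabrd averaged 0.08 ± 0.06, Gabra3 0.04 ± 0.04 and Gabrb1 0.01 ± 0.04. Tissue markers differed between the days as well: all 7 oligodendrocyte markers passed as lower at day 21, with a median log2 change of -0.61, 7 of 8 choroid plexus markers passed as lower, with a median of -2.56, and 3 of 10 markers of striatum and central amygdala passed as higher. The summed endothelial markers had higher means at day 21 in each combination, and their library ranges overlapped in all but adult controls. Means at day 1 and day 21 were 37.4 and 51.6 FPKM in adult controls and 38.3 and 47.7 FPKM in defeated adults. In adolescents they were 42.9 and 46.6 FPKM in controls and 48.1 and 52.1 FPKM after defeat. The part of endothelium in the day differences was not tested. When the choroid plexus score entered the fit neither gene passed, Gabra2 at 0.10 (edgeR adjusted p = 0.219) and Gabrb2 at -0.19 (edgeR adjusted p = 0.120). With the score of striatum and central amygdala as a covariate Gabra2 passed and Gabrb2 did not, at -0.17 (edgeR adjusted p = 0.106), while Gabrd, at 0.08 without the covariate, turned to -0.10 and passed (edgeR adjusted p = 0.0134).

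Whether the age-class difference itself changed with day was tested in 2 comparisons added after the values had been seen. Among controls, the adult minus adolescent difference of Gabra2 at day 21 minus that at day 1 was -0.40 ± 0.10 on the log2 scale (unadjusted p = 6.53e-04), which did not pass in edgeR (adjusted p = 0.0997) in a comparison where 0.114% of all genes passed. Over controls and defeat together the value was -0.31 ± 0.07 (unadjusted p = 1.96e-04, edgeR adjusted p = 0.136), where edgeR called 0 genes, 0.0% of those tested, 2012 of them under an unadjusted 0.05. DESeq2, which called 0.604% and 0.265% of the genes listed, called Gabra2 in both comparisons, with adjusted p-values of 0.0302 among controls and 0.0193 over controls and defeat. None of the other 6 genes was under an unadjusted 0.05 in either.

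Other genes of GABA signalling differed by age class and day in small steps, against backgrounds of 23.0% and 9.3%. Between age classes, averaged over treatment and day, 8 of 24 genes of anchoring, assembly and trafficking were higher in adults and 3 of 24 lower, with 1 of 9, 3 of 7, 1 of 6 and 1 of 6 genes passing in the lists of GABA synthesis and uptake, chloride gradient, GABA-B receptors and neurosteroid ligands. The 4 with the smallest p were Shisa7, an auxiliary subunit of GABA-A receptors, at 0.20 (edgeR adjusted p = 6.82e-08), Trak1 at 0.21 (edgeR adjusted p = 8.04e-08), Gphn, which encodes the synaptic scaffold gephyrin, at -0.12 (edgeR adjusted p = 8.77e-05), and Insyn2a, an inhibitory synapse protein, at 0.20 (edgeR adjusted p = 9.05e-04). Among controls at day 21, where 6.06% of all genes passed, Trak1 (0.29), Insyn2a (0.44) and Mdga1 (0.39), which binds neuroligins, were higher and Gphn (-0.17) lower in adults. Of the 24 anchoring, assembly and trafficking genes, 4 passed there as higher in adults and 1 as lower. Among controls at day 1, where 4.38% passed, Srd5a1, a steroid reductase on the path to allopregnanolone, was lower in adults at 10.5 ± 0.898 CPM, against 14.8 ± 1.74 CPM in adolescents (-0.49, edgeR adjusted p = 0.0141), as were Nlgn2 (-0.17), the neuroligin of inhibitory synapses, Car7 (-0.35), a carbonic anhydrase, and Clcn2 (-0.19), a chloride channel. At that day 1 of 24 anchoring, assembly and trafficking genes passed as higher in adults, beside 1 of 24 as lower. Gabre, encoding the epsilon subunit, was the only 1 of 7 other subunits tested to pass in any comparison, at 3.31 ± 0.675 CPM in adult controls and 2.0 ± 0.535 CPM in adolescent controls at day 1 (0.73, edgeR adjusted p = 0.0485), and it is named after its values were seen.

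Between days, averaged over age class and treatment, 4 of 24 anchoring and trafficking genes were higher at day 21 and 3 of 24 lower, and 2 of 9 synthesis genes, Gad1 and Gad2, both of which make GABA, were higher. In the other lists 1 of 7 chloride gradient genes was higher and 2 of 7 lower, and 1 of 6 GABA-B genes, 2 of 6 neurosteroid genes and 0 of 7 other subunits passed, the first 2 lists downward. Gad1 and Gad2 are also among the 9 inhibitory interneuron markers, 3 of which passed as higher at day 21, and striatal neurons make both; the part of tissue make-up in their values was not tested. The 4 genes with the smallest p were Trak2, a relative of Trak1, at -0.22 (edgeR adjusted p = 1.31e-05), Srd5a1 at -0.37 (edgeR adjusted p = 2.06e-04), Slc12a2, which brings chloride into cells, at -0.38 (edgeR adjusted p = 2.06e-04), and Slc12a5, which takes chloride out of neurons, at 0.10 (edgeR adjusted p = 3.99e-04). Slc12a2 is also made by oligodendrocytes and choroid plexus, whose markers were lower at day 21 as given above, and their part in its value was not tested. In the controls of single age classes, Srd5a1 was lower at day 21 in adolescents (-0.54, edgeR adjusted p = 0.0208) and Trak1 higher at day 21 in adults (0.22, edgeR adjusted p = 0.0206).

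Across single libraries, Gabrb1 was high where Gabra2, Gabra3, Gabra5 and Gabrb2 were high, and Gabrd was low where Gabra2, Gabra3, Gabra5 and Gabrb1 were high. Log2 CPM was taken as the deviation from the mean of the library's own group, so that group differences play no part, and 21 pairs were compared over the 32 libraries with permutation tests within groups, adjusted over the pairs. Pearson's r was above 0 in 13 pairs, and 11 pairs passed, 7 of them positive and 4 negative. All 11 also passed with Spearman's rho, and none changed sign without the 2 libraries farthest from the median. The closest pair was Gabra5 and Gabrb1, with r = 0.80 (permutation p = 1.20e-04, adjusted p = 6.30e-04, Spearman's rho = 0.73 with adjusted permutation p = 0.00126, r = 0.76 without the 2 farthest libraries). Gabrb1 with Gabrb2 (0.72), Gabra2 with Gabrb1 (0.68), Gabra3 with Gabra5 (0.67), Gabra3 with Gabrb1 (0.58) and Gabra2 with Gabrb2 (0.56) followed. Gabra4 and Gabrd, which join in the same receptors, went together at r = 0.66 (permutation p = 0.00171, adjusted p = 0.00598, rho = 0.56 with adjusted permutation p = 0.0167, r = 0.59 without the 2 farthest libraries). The 4 negative pairs all held Gabrd, with Gabrb1 at -0.71, Gabra3 at -0.57, Gabra5 at -0.50 and Gabra2 at -0.46. Gabra4 and Gabrb1, whose starts overlap on chromosome 5, did not pass, at -0.16 (permutation p = 0.456, adjusted p = 0.516).

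These relations ran beside the make-up of the dissected tissue, measured in the same way with the mean log2 CPM of 10 marker lists, over 70 relations. Gabrd followed the 10 markers of striatum and central amygdala with r = 0.96 (permutation p = 1e-05, the smallest these permutations can give, adjusted p = 3.50e-04, rho = 0.94 with adjusted permutation p = 7.00e-04), and r was 0.94 without the 2 farthest libraries. Gabra4 followed them at 0.64 (adjusted permutation p = 0.0124), with rho = 0.48 (adjusted permutation p = 0.0734) and r = 0.47 without the 2 farthest, so that relation rested partly on those libraries. Gabrb1 and Gabra3 went against them, at -0.68 and -0.63. With the 9 markers of pallial and basolateral amygdala excitatory neurons, Gabra3 had r = 0.82, Gabra5 0.75 and Gabrb1 0.64, and Gabrd -0.59, each passing with adjusted permutation p-values of 0.00035 to 0.0124. Gabra3 and Gabra5 went against astrocyte markers (-0.69 and -0.62), and Gabra5, Gabrb1 and Gabrb2 against microglial markers (-0.71, -0.66 and -0.62). Gabra3 also went against oligodendrocyte markers (-0.57) and Gabrb2 against endothelial markers (-0.62). Gabrd followed markers of inhibitory interneurons (0.48), a list that holds Gad1 and Gad2, which striatal neurons also make. All of these relations passed with r, and beside Gabra4 those that did not pass with rho were Gabrb2 with microglial and with endothelial markers (adjusted permutation p = 0.137 and 0.119). No other relation passed with r. Gabra5 against markers of striatum and central amygdala passed with rho alone, at -0.56 (adjusted permutation p = 0.0324). Its r was -0.54 (adjusted permutation p = 0.0511). Gabra2 passed with none of the 10 lists, and none of the 7 genes passed with choroid plexus markers. How much of the co-variation between subunits comes with these markers was not tested.

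**Figure D5:**
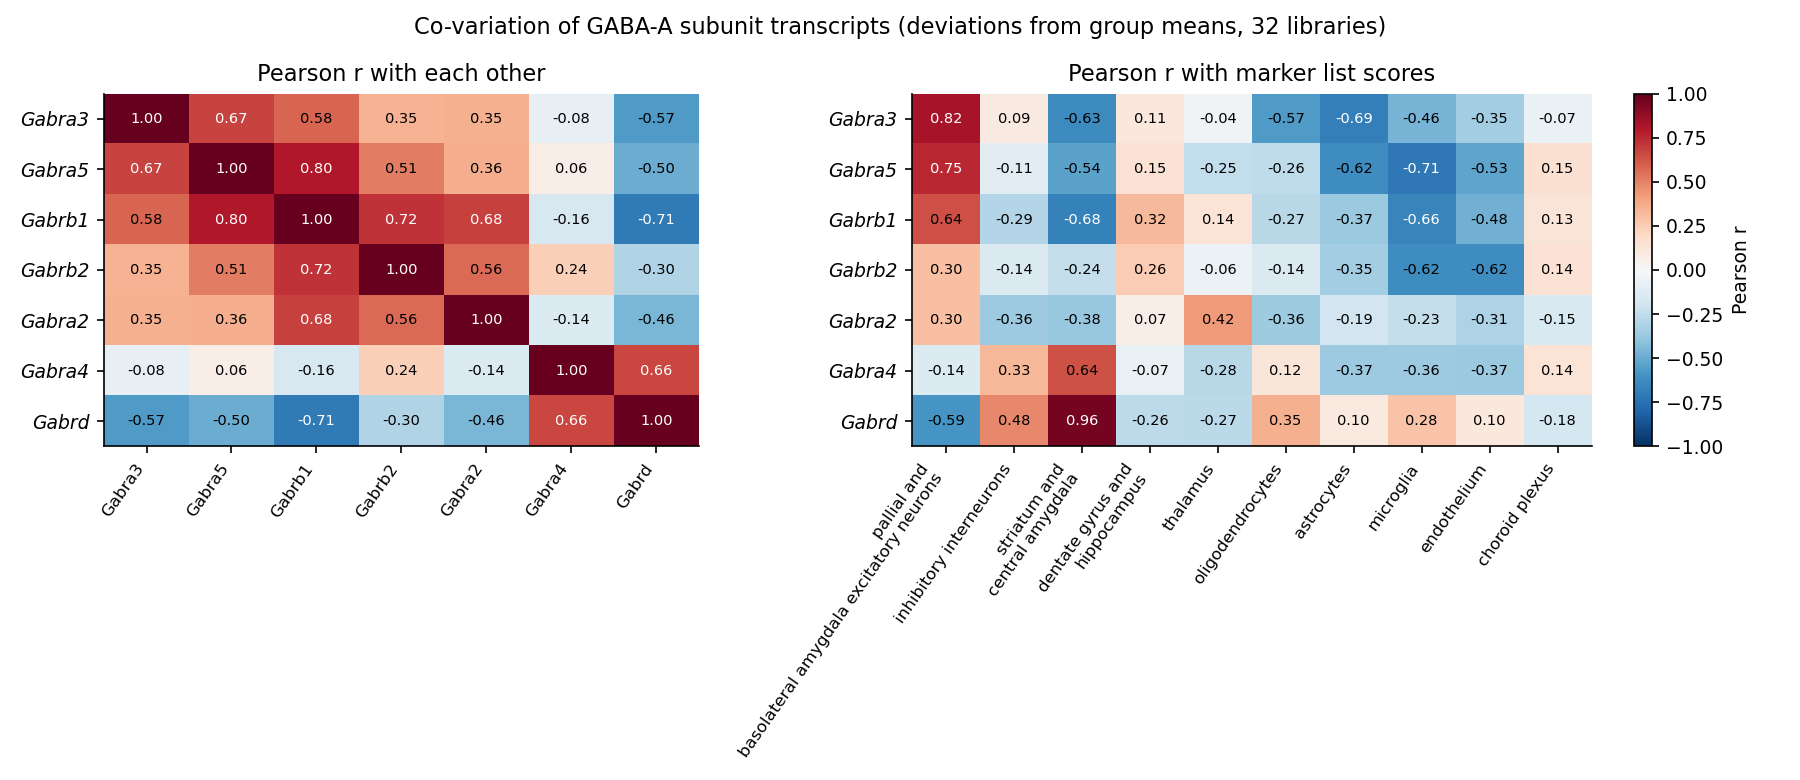
Pearson's r of log2 CPM deviations from group means over 32 libraries, for the 7 genes with each other on the left and with the scores of 10 marker lists on the right, from blue at -1 to red at 1. All pairs among Gabra2, Gabra3, Gabra5, Gabrb1 and Gabrb2 lie above 0, with Gabrb1 and Gabrd at -0.71, and Gabrd reaches 0.96 with markers of striatum and central amygdala.

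The genes most like each subunit were the 3 with the highest Pearson's r of log2 CPM over the 32 libraries, among 13601 tested genes with a mean of at least 1 FPKM. Libraries of a group share that group's level in these values, and r is given as a description. For Gabrd they were Ppp1r1b (0.94), Scn4b (0.94) and Pde1b (0.93), of which Ppp1r1b is 1 of the 10 markers of striatum and central amygdala. For Gabra4 they were Prkar2b (0.87), Ano3 (0.86) and Cap1 (0.86). Gabra2 was nearest to Xpo1 (0.90), Ryr2 (0.88) and Zfp207 (0.88). With group means taken out, its r was 0.65 with Xpo1, 0.75 with Ryr2 and 0.49 with Zfp207. Gabra3 was nearest to Creg2 (0.88), Nol4 (0.88) and Spon1 (0.87), and Gabra5 to Lancl2 (0.85), Syt1 (0.84) and Nell2 (0.84). Of the beta subunits, Gabrb1 was nearest to Ppfia2 (0.90), Gnaq (0.88) and Pcdh19 (0.86), and Gabrb2 to Xkr4 (0.88), Usp34 (0.87) and Agtpbp1 (0.87).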

How the data were processed

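Polyadenylated RNA of 32 basolateral amygdala libraries was measured. Per the submitters' processing notes, cutadapt 1.9, HISAT2 2.0.4, StringTie 1.3.4d and edgeR were used, and hg38, a human build, is named although the gene identifiers are mouse ones; the role of each tool and the handling of strand are not given in the sources used here. Per the file headers, the authors deposited whole-number read counts and FPKM values for 40392 genes, with 32 columns of each, all matched to samples by name. For tests, counts went into edgeR 4.0.16 (R 4.3.3): filterByExpr kept 23778 genes holding 99.975% of counts, TMM factors scaled the libraries, and contrasts between 8 group means in a single model (24 residual degrees of freedom) gave 2-sided quasi-likelihood tests with Benjamini-Hochberg adjustment over all genes at 0.05. SE was taken as the size of the log2 change over the root of its F statistic. FPKM served for levels between genes and, with limma 3.58.1, as an alternative scale. DESeq2 1.42.0 was another alternative. Correlations used 100000 permutations of libraries within groups. The fit was tested on simulated counts. The 7 genes, the lists and the markers were chosen with earlier results of these data known. From the lists of GABA genes up to 4 passing genes per comparison, by smallest p, are named. Each library held at least 2701 counts for each of the 7 genes, so counting error is small beside the spread between libraries. Other settings tried were scaling by upper quartiles, leaving the low-count filter out, limma on log2 FPKM with a pseudocount of 0.1 or 1, keeping genes that reach 1 FPKM in 4 libraries and, at 1, also keeping all, the replicate number as a block, the groups compared alone, scores of striatum and central amygdala or of choroid plexus markers as a covariate, no libraries above 100 CPM of Ttr, and each library left out. No 2 libraries had identical counts. Results for some other subunits are not reported here.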

Additional observations from a re-analysis of the deposited data

Results flagged for a closer look

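In 2 of the 56 sets of 4 libraries (7 genes in 8 groups), 1 library stood far from the other 3; chance gives about 1 in 20 sets. Gabra3 was lowest in adult defeat day 1 replicate 1, at 123 CPM, with the nearest of the other 3 at 154 CPM and the highest at 155 CPM. Gabra5 was lowest in adolescent control day 21 replicate 2, at 41.3 CPM, with the others between 60.2 and 61.0 CPM.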

How the results depend on the processing

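The number of the 7 genes called was 0 in all 4 defeat comparisons, their average and the 4 tests of a difference between defeat effects, under every alternative run and with each library left out. Adult against adolescent controls at day 1 gave 1 call, and 0 both without libraries above 100 CPM of Ttr and with only the groups compared, where fewer libraries entered; leaving out single libraries gave 1 to 2, the 2 being Gabra2 and Gabrb1 without adult control day 1 replicate 4. Day 21 against day 1 in adolescent controls gave 0, but 1 (Gabra2) with DESeq2 and with the striatum and central amygdala covariate. Age class averaged gave 2 (Gabra2 and Gabrd). Of 9 other settings run for it, 5 also gave 2 calls and the rest gave 1 to 3, with Gabra2 called in each. Gabrd was lost with the replicate block and with the striatum covariate. Single libraries left out gave 1 to 4, Gabrd passing in 12 of 32 such fits. The 4 calls, Gabra4 and Gabrb1 added, came without adolescent control day 21 replicate 3 or adult defeat day 21 replicate 3. Day averaged gave 2 (Gabra2 and Gabrb2), 1 (Gabrb2) without a filter and with limma at either pseudocount, 0.1 or 1, filtered or at 1 unfiltered, and 0 with the choroid plexus covariate; single libraries left out gave 1 to 3, Gabra2 being lost without adolescent control day 1 replicate 3, adolescent defeat day 1 replicate 3, adolescent defeat day 21 replicate 4 or adult control day 21 replicate 4. With the striatum covariate the day difference of Gabrd turned to -0.10 and passed, while Gabra2 passed and Gabrb2 did not. The 2 added age-by-day tests gave 0, and 1 (Gabra2) each with DESeq2. The causes were not tested.

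Libraries with the same replicate number did not deviate together on average. Mean r was 0.0014 over 112 pairs, 26 of them over 0.1, against -0.0005 over 336 pairs of different numbers, 63 of them over 0.1. No pairing by number was seen, though a mean r near 0 cannot show that there is none. With the replicate block 1 gene in place of 2 was called for age class averaged, Gabrd being lost (edgeR adjusted p = 0.0539), and no other count changed. Fits of only the groups compared were not run for the averages, and leaving out the Ttr libraries could not be done where the adolescent defeat day 1 group, all 4 of whose libraries go, was needed.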
